A study of Mus musculus with 32 samples.

Results

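The question examined here is whether the histone deacetylase inhibitor CI-994 changed gene expression differently in the hippocampus and in the striatum of mice that had explored a chamber without receiving a shock. The quantity measured was the region difference: the log2 effect of CI-994 over vehicle in hippocampus minus the log2 effect of CI-994 over vehicle in striatum. It rests on 16 of the 32 libraries of the study, 4 in each of 4 groups, and it was computed for all 19198 genes that passed the filter on low counts. The groups were hippocampus after CI-994 (HDACi), hippocampus after vehicle, striatum after HDACi and striatum after vehicle. A positive value means that the effect of CI-994 was higher in hippocampus, and a negative value that it was lower there.

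All animals were male C57BL/6 mice (the housing protocol gives C57BL/6J) aged 12 weeks. HDACi mice received 30 mg/kg CI-994 by intraperitoneal injection, and vehicle mice received the same solvent of dimethyl sulfoxide, Kolliphor and saline without the compound. The injection preceded a stay in the conditioning chamber with no foot shock (context) by 1 hour, and tissue was taken 1 hour after the stay. Each library held polyadenylated RNA of 1 hemisphere of the region from 1 mouse, so n counts mice. The other 16 libraries came from mice that did receive shocks (contextual fear conditioning), and they serve below as separate animals. Mice of a cage shared 1 behaviour, so cage and behaviour cannot be told apart, but drug was assigned at random.

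Histone deacetylases remove acetyl groups from lysines of histone tails, which is usually associated with less accessible chromatin and lower transcription. Class I enzymes (HDAC1, HDAC2, HDAC3 and HDAC8) work mostly inside corepressor complexes such as Sin3, NuRD, CoREST and NCoR. Inhibitors of this class raise histone acetylation within hours, yet many genes fall in expression as well as rise. The hippocampus holds glutamatergic pyramidal and granule neurons and stores contextual memory, whereas the striatum is made mostly of GABAergic medium spiny neurons that receive dopamine.

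The 16 context libraries held 26026024 to 35246359 counts. Within each group replicates 1 and 2 were closest to each other and replicates 3 and 4 to each other: a chi-square of the counts per degree of freedom was 6.11 to 18.9 inside these sets and 17.1 to 51.0 between them. No pair agreed within sampling noise. The labelled regions carried their markers. The summed level of 19 medium spiny neuron genes was 533 to 547 CPM (read counts relative to library size, scaled by the trimmed mean of M values, TMM) in hippocampus HDACi and 447 to 473 CPM in hippocampus vehicle, against 13400 to 15240 CPM in striatum HDACi and 11120 to 13080 CPM in striatum vehicle. The sum of 18 hippocampal excitatory genes was 2230 to 2615 CPM in hippocampus HDACi and 1836 to 2174 CPM in hippocampus vehicle, against 821 to 920 CPM in striatum HDACi and 571 to 716 CPM in striatum vehicle. Both sums were thus higher after HDACi in each region with no overlap, and so were those of interneuron, astrocyte and oligodendrocyte precursor genes. These sums depend on the scaling. The TMM factors, by which counts are divided, were 0.968 to 0.991 in hippocampus HDACi and 1.027 to 1.055 in hippocampus vehicle. In striatum they were 0.912 to 0.948 with HDACi and 1.004 to 1.035 with vehicle, and a lower factor gives higher CPM. The part of the scaling in the sums, and of the shifts of the sums in the results, was not tested. In whole tissue fewer cells of a type and less RNA per cell cannot be told apart.

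Striatum vehicle replicates 1 and 4 stood apart. Tbr1, a transcription factor of cortical excitatory neurons, was at 3.12, 5.15, 3.19 and 9.17 CPM in the striatum HDACi libraries, against 12.6, 3.48, 6.03 and 29.7 CPM in the striatum vehicle libraries in the order of their numbers. Neurod6, another factor of forebrain excitatory neurons, was at 0.701, 2.86, 0.878 and 4.86 CPM in striatum HDACi, against 9.39, 1.22, 3.5 and 20.1 CPM in striatum vehicle. The highest values of both genes were in vehicle replicates 1 and 4. The summed level of 12 neocortical neuron genes was 381 to 443 CPM in striatum HDACi and 338 to 420 CPM in striatum vehicle. These 12 genes did not move as one. At an adjusted p under 0.05 in edgeR, 2 rose in striatum (Scnn1a 0.714 and Tle4 0.475 log2) and 1 fell (Nr4a2 -2.92). The striatal effect of Tbr1 was -1.33 and did not pass (adjusted p = 0.282 in edgeR). The named differences that lost the call without striatum vehicle replicates 1 and 4 are given with and without them.

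CI-994 changed many genes in each region, and few of them differed between the regions. In edgeR's quasi-likelihood test with Benjamini-Hochberg adjustment over all genes, at an adjusted p under 0.05, 1199 genes rose (6.25%) and 2562 fell (13.3%) in hippocampus, 19.6% of those tested. In striatum 2396 rose (12.5%) and 2613 fell (13.6%), or 26.1%. The split into rises and falls depended on the scaling. In hippocampus 68.1% of the calls were falls in the main fit, 54.5% with DESeq2's size factors and 82.1% with library size alone. In striatum these shares were 52.2%, 48.9% and 78%. The region difference itself passed for 119 genes, 0.620% of those tested, of which 55 were positive (0.286%) and 64 negative (0.333%). These 119 made 1.98% of the 6019 genes changed in at least 1 region. Of 2751 genes that changed in both, 2732 (99.3%) moved the same way and 19 moved in opposite ways. Across the 19198 genes Pearson's r of the hippocampal and the striatal effect was 0.64, as a description, since genes are not independent replicates.

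**Figure D1:**
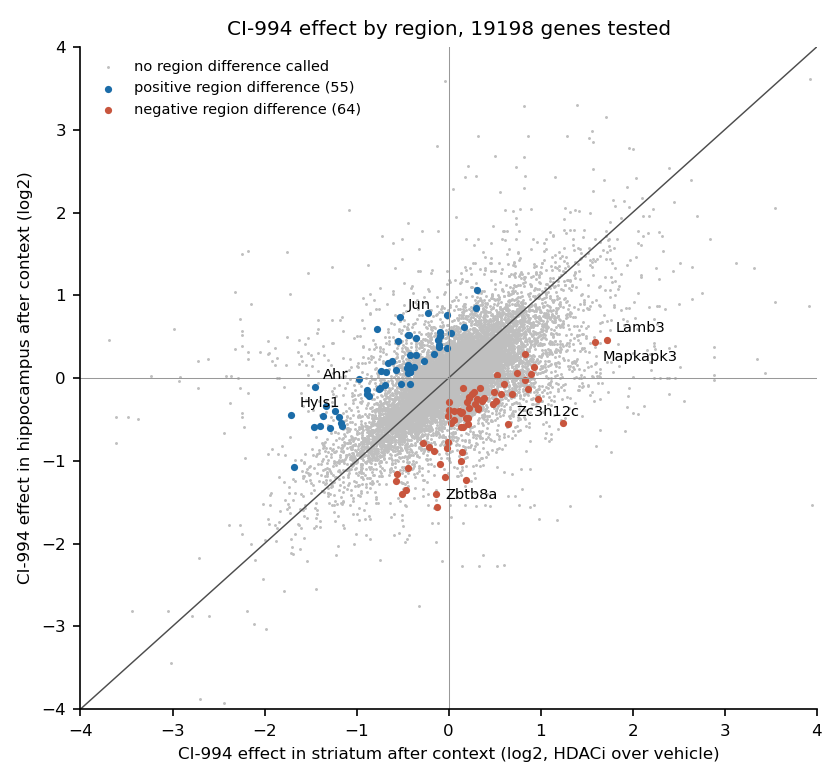
Effect of CI-994 on each tested gene in hippocampus (vertical axis) and in striatum (horizontal axis) after context, both as log2 of HDACi over vehicle from the edgeR fit. Grey points are genes with no called region difference (9 lie outside the axes), blue points the 55 positive and red points the 64 negative ones, and the diagonal marks equal effects. The coloured genes lie on both sides of the diagonal, many of them close to an axis.

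The called differences ranged in size from 0.28 to 1.79 on the log2 scale, and 17 of them exceeded 2-fold, 6 positive and 11 negative. Of the 119 genes, 37 passed the test in hippocampus alone, 42 in striatum alone, 23 in both with the same sign and 17 in both with opposite signs. The positive genes were mostly genes that fell in striatum (42 of 55, with 2 that rose there), while in hippocampus 21 of them rose and 13 fell. The negative genes were mostly genes that fell in hippocampus (42 of 64, with 1 that rose there), while in striatum 31 rose and 7 fell.

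The number of calls depended on the libraries and on the scaling, and the sign of the 119 called differences did not. Without striatum vehicle replicates 1 and 4, 57 differences were called (45 positive and 12 negative), among them 50 of the 119, and all 119 kept their sign. The split into positive and negative moved with the scaling: it was 68 to 41 with DESeq2's size factors and 86 to 49 with library size alone. It also moved with single libraries: leaving out any 1 of the 8 HDACi libraries or striatum vehicle replicate 4 gave 86 to 132 positive and 22 to 37 negative calls, the most uneven being 112 to 23 without hippocampus HDACi replicate 1, while hippocampus vehicle replicate 2 left out gave 35 to 41 and striatum vehicle replicate 3 left out gave 45 to 41. Without 4 conditioning libraries that stood apart it was 163 to 45, and with GC and length offsets 165 to 106. The median region difference of all genes was -0.03 in the main fit and lay between -0.05 and 0.07 over the alternatives. Hippocampus and striatum libraries with the same treatment and number deviated together in the 8 pairs (r of 0.30 to 0.71), and with each such pair as a block 312 genes were called, 129 positive and 183 negative, among them 115 of the 119. Within replicates 1 and 2 alone no difference passed (761 at an unadjusted p under 0.05 in edgeR), and within replicates 3 and 4 alone 4 passed. All 119 kept their sign in both sets.

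By its definition, a positive difference means that a gene rose in hippocampus, fell in striatum more than in hippocampus, or both. The leading positive genes shown are described by which of these held. Jun, a subunit of the AP-1 transcription factor (chromosome 4, 95049034 to 95052222, minus strand of mm10), was at 90.6, 93.2, 73.7 and 81.8 CPM in hippocampus HDACi, against 66.4, 48.4, 46.6 and 42.2 CPM in hippocampus vehicle. In striatum it was at 6.94, 10.3, 6.76 and 8.33 CPM with HDACi, against 13.0, 11.8, 10.9 and 11.0 CPM with vehicle. The groups did not overlap in either region: every HDACi library was above the vehicle libraries in hippocampus and below them in striatum. Over all tested genes the drug groups did not overlap for 21.9% in hippocampus and 27.6% in striatum. Leading genes were named only if the groups did not overlap in at least 1 region, so that much was fixed by the rule. Jun rose 1.67-fold in hippocampus (log2 0.74 ± 0.16 SE, adjusted p = 0.000805 in edgeR) and fell 1.45-fold in striatum (log2 -0.53 ± 0.17, adjusted p = 0.0198). Its region difference was 1.27 ± 0.23 (SE of the fit, n = 4 per group, edgeR adjusted p = 0.00431). It was 1.20 within replicates 1 and 2 and 1.44 within replicates 3 and 4.

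Ahr, the aryl hydrocarbon receptor, a transcription factor activated by small ligands (chromosome 12, 35497974 to 35535038, minus strand), differed through striatum. Its level was 6.88, 10.8, 10.0 and 11.4 CPM in hippocampus HDACi, against 9.20, 10.6, 10.5 and 12.1 CPM in hippocampus vehicle, and these overlapped. In striatum it was 2.45, 2.67, 2.93 and 3.17 CPM with HDACi, against 6.84, 7.77, 7.04 and 9.18 CPM with vehicle. The striatal groups stood clear of each other, a 2.74-fold fall (log2 -1.46 ± 0.16, adjusted p = 5.15e-08 in edgeR). The region difference of Ahr was 1.34 ± 0.22 (adjusted p = 0.00157 in edgeR) and 1.38 without striatum vehicle replicates 1 and 4. Mphosph10, a protein of the U3 ribonucleoprotein that processes ribosomal RNA, had the same shape: it fell 1.96-fold in striatum, its hippocampal effect was -0.01 ± 0.13, and its difference was 0.96 ± 0.19 (adjusted p = 0.00865 in edgeR).

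Cblb and Jph1 changed in opposite directions at higher levels. Cblb, a ubiquitin ligase that limits receptor signalling (chromosome 16, 52031225 to 52208048, plus strand), was at 86.0, 69.2, 83.6 and 78.9 CPM in hippocampus HDACi, against 56.0, 50.6, 60.6 and 54.7 CPM in hippocampus vehicle. The striatal values were 10.3, 11.6, 10.9 and 11.5 CPM with HDACi, against 14.2, 15.0, 14.6 and 16.1 CPM with vehicle. Every hippocampal HDACi library was above its controls and every striatal one below, and the difference was 0.95 ± 0.14 (adjusted p = 0.00111 in edgeR). Jph1, a junctophilin that ties the endoplasmic reticulum to the plasma membrane (chromosome 1, 16964560 to 17097889, minus strand), averaged 70.2 ± 6.15 CPM in hippocampus HDACi and 48.9 ± 2.65 CPM in hippocampus vehicle (SD, n = 4 each). In striatum it averaged 15.8 ± 0.974 CPM with HDACi and 21.3 ± 1.84 CPM with vehicle (SD, n = 4 each). Its difference of 0.95 ± 0.12 shared the smallest adjusted p of the whole comparison, 0.000154 in edgeR, and was 0.86 within replicates 1 and 2 and 1.13 within replicates 3 and 4. Rnf19a, another ubiquitin ligase, fell 1.58-fold in striatum with a hippocampal effect of 0.18 ± 0.08 that did not pass (adjusted p = 0.107 in edgeR), and its difference was 0.84 ± 0.11.

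A further group fell in both regions, more deeply in striatum. Hyls1, a centriole protein needed for cilia (chromosome 9, 35560820 to 35570398, minus strand), was at 6.92, 7.26, 8.24 and 8.64 CPM in hippocampus HDACi, against 9.82, 9.75, 10.7 and 12.2 CPM in hippocampus vehicle. In striatum it was at 1.68, 1.60, 2.44 and 2.02 CPM with HDACi, against 6.24, 5.67, 6.69 and 6.87 CPM with vehicle. The fall was 1.37-fold in hippocampus and 3.27-fold in striatum, and the difference was 1.26 ± 0.21 (adjusted p = 0.00169 in edgeR). Ttc26, a subunit of the intraflagellar transport machinery of cilia, fell 1.32-fold in hippocampus and 2.36-fold in striatum. Ccdc71l fell 1.27-fold in hippocampus and 2.53-fold in striatum, and Frat2, which binds the kinase GSK3 in Wnt signalling, 1.37-fold and 2.58-fold in the same order. Tnfaip3 (A20), a ubiquitin-editing enzyme that restrains NF-kappaB, fell 1.5-fold in hippocampus and 2.8-fold in striatum. For 3 of these genes 1 library decided the call. The difference of Frat2 (0.91, edgeR adjusted p = 0.0292) was 0.91 without hippocampus vehicle replicate 2, 0.85 without hippocampus vehicle replicate 4 and 0.87 without striatum vehicle replicate 1, with adjusted p of 0.0602 to 0.0720. That of Tnfaip3 (0.88, edgeR adjusted p = 0.0321) was 0.88 without hippocampus vehicle replicate 2 and 0.81 without hippocampus vehicle replicate 4 or striatum vehicle replicate 2, with adjusted p of 0.0626 to 0.0823. That of Ttc26 (0.84, edgeR adjusted p = 0.0281) was 0.77 without hippocampus vehicle replicate 2 (adjusted p = 0.0716). Without striatum vehicle replicates 1 and 4 together these 3 values were 0.91, 1.0 and 0.88, with adjusted p of 0.122 for Frat2, 0.0531 for Tnfaip3 and 0.0748 for Ttc26. Frat2 and Tnfaip3 also missed the threshold when the 16 context libraries were fitted alone.

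**Figure D2:**
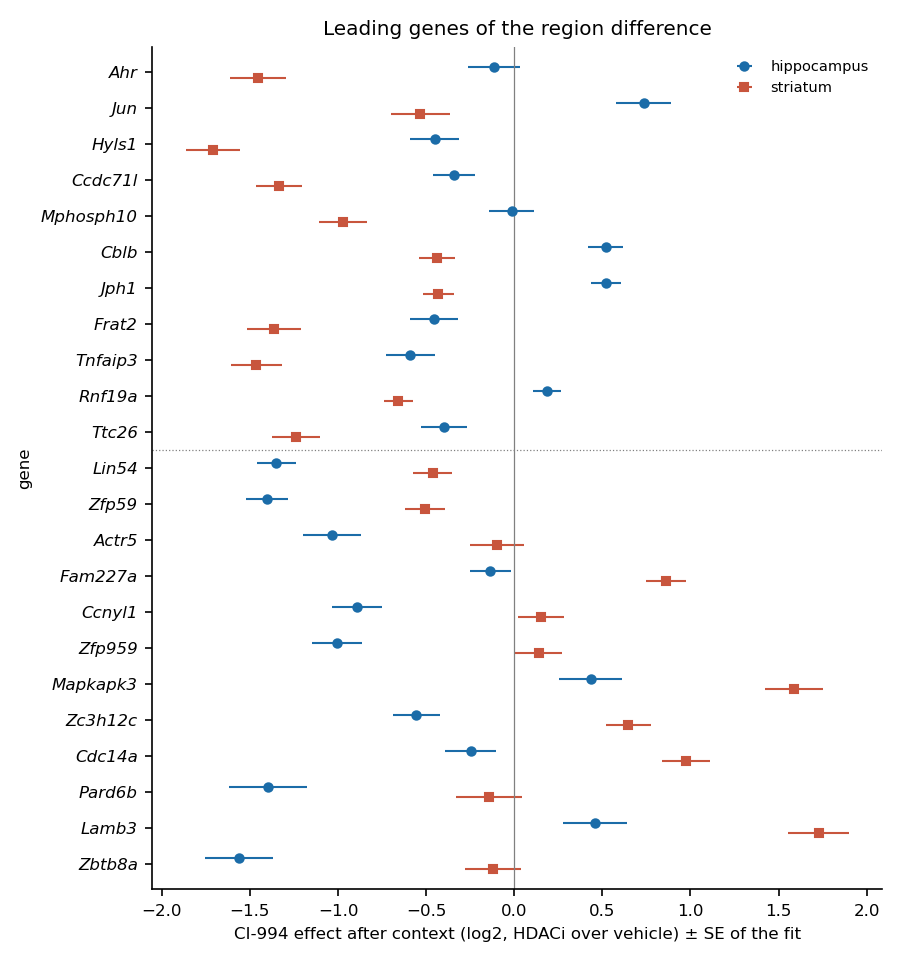
Effect of CI-994 after context (log2 of HDACi over vehicle, with the standard error of the edgeR fit) in hippocampus (blue circles) and striatum (red squares) for leading genes of each direction (11 positive and 12 negative), ordered by region difference. Above the dotted line the hippocampal effect is the higher one and below it the lower one, from Ahr (1.34) at the top to Zbtb8a (-1.44) at the bottom.

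A negative difference likewise means, by definition, that a gene fell in hippocampus more than in striatum, rose in striatum, or both. The 12 leading negative genes are described by which of these held. Zbtb8a, a zinc finger protein with a BTB domain (chromosome 4, 129353628 to 129378116, minus strand), was at 1.33, 0.988, 0.915 and 1.42 CPM in hippocampus HDACi, against 3.61, 3.56, 3.24 and 3.32 CPM in hippocampus vehicle. Its striatal values were 8.03, 10.5, 9.0 and 8.73 CPM with HDACi, against 10.6, 10.2, 9.66 and 9.07 CPM with vehicle. The hippocampal groups were far apart, a 2.95-fold fall, while the striatal ones overlapped (log2 -0.12 ± 0.16). The region difference was -1.44 ± 0.25 (adjusted p = 0.00293 in edgeR), and -1.34 without striatum vehicle replicates 1 and 4. Zfp959, a zinc finger protein, fell 2.01-fold in hippocampus and had a striatal effect of 0.14 ± 0.13, and Ccnyl1, a cyclin Y relative, fell 1.86-fold in hippocampus with a striatal effect of 0.15 ± 0.13. Their differences were -1.15 ± 0.20 and -1.04 ± 0.19, with adjusted p of 0.00239 and 0.00431 in edgeR. Without striatum vehicle replicates 1 and 4 they were -0.97 for Zfp959 (adjusted p = 0.0486 in edgeR) and -0.96 for Ccnyl1, which then missed the threshold (adjusted p = 0.0609). Lin54, the DNA-binding subunit of the DREAM complex that represses cell cycle genes, and Zfp59 fell in both regions: Lin54 2.55-fold in hippocampus and 1.38-fold in striatum, and Zfp59 2.65-fold in hippocampus and 1.42-fold in striatum. The difference of Lin54 was -0.89 ± 0.15 (adjusted p = 0.00302 in edgeR) and, without striatum vehicle replicates 1 and 4, -0.74, which missed the threshold (adjusted p = 0.0609). Zfp genes have many near-identical relatives, and how reads shared between them were counted is not given in the sources used here, so their values are uncertain.

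Pard6b and Actr5 had the same form at low levels. Pard6b, a polarity protein of the PAR complex (chromosome 2, 168081004 to 168101203, plus strand), was at 1.06, 1.12, 0.845 and 0.992 CPM in hippocampus HDACi, against 3.36, 2.78, 2.37 and 2.09 CPM in hippocampus vehicle. In striatum it was at 4.52, 6.99, 5.27 and 5.46 CPM with HDACi, against 6.87, 5.89, 4.99 and 6.75 CPM with vehicle. The hippocampal groups did not overlap and the striatal ones did, and the difference was -1.26 ± 0.29 (adjusted p = 0.0355 in edgeR). Actr5, a subunit of the INO80 chromatin remodeller, fell 2.05-fold in hippocampus and had a striatal effect of -0.10 ± 0.15 (difference -0.94 ± 0.23, adjusted p = 0.0454 in edgeR). Pard6b missed the threshold when any of 12 of the 16 libraries was left out (-1.24 to -1.02), all but hippocampus vehicle replicates 3 and 4, striatum vehicle replicate 1 and striatum HDACi replicate 1. Actr5 missed it when any of 14 was left out (-0.96 to -0.71), all but hippocampus vehicle replicate 4 and striatum vehicle replicate 2. Without striatum vehicle replicates 1 and 4 both missed it, at -1.33 for Pard6b (adjusted p = 0.0829 in edgeR) and -0.79 for Actr5 (adjusted p = 0.359). Actr5 also missed it when the 16 context libraries were fitted alone.

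Among genes raised in striatum, Lamb3, the beta chain of an epithelial laminin (chromosome 1, 193207699 to 193343878, plus strand), was at 2.43, 2.45, 2.25 and 2.02 CPM in hippocampus HDACi, against 1.48, 1.49, 1.93 and 1.74 CPM in hippocampus vehicle. Striatal levels were 7.32, 7.18, 5.30 and 6.61 CPM with HDACi, against 2.17, 2.01, 1.77 and 2.01 CPM with vehicle. Of the 2 effects the striatal one passed the test: a 3.31-fold rise, beside a log2 effect of 0.46 ± 0.18 in hippocampus (adjusted p = 0.0738 in edgeR). The difference itself was -1.27 ± 0.25 (adjusted p = 0.00865 in edgeR), and -1.25 without striatum vehicle replicates 1 and 4, which missed the threshold (adjusted p = 0.0583). Mapkapk3, a kinase that acts below p38 (chromosome 9, 107254927 to 107289877, minus strand), averaged 2.2 ± 0.22 CPM in hippocampus HDACi and 1.6 ± 0.23 CPM in hippocampus vehicle (SD, n = 4 each). In striatum it averaged 8.28 ± 0.299 CPM with HDACi and 2.75 ± 0.539 CPM with vehicle (SD, n = 4 each). Its rise was 3.01-fold in striatum, and its difference was -1.16 ± 0.24 (adjusted p = 0.0146 in edgeR), or -1.0 (adjusted p = 0.0576) without hippocampus HDACi replicate 3. Cdc14a, a phosphatase, rose 1.97-fold in striatum, and Fam227a 1.82-fold. Their hippocampal effects were -0.25 ± 0.14 and -0.14 ± 0.12, and their differences -1.22 ± 0.20 and -0.99 ± 0.16 (adjusted p = 0.00157 for each in edgeR).

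**Figure D3:**
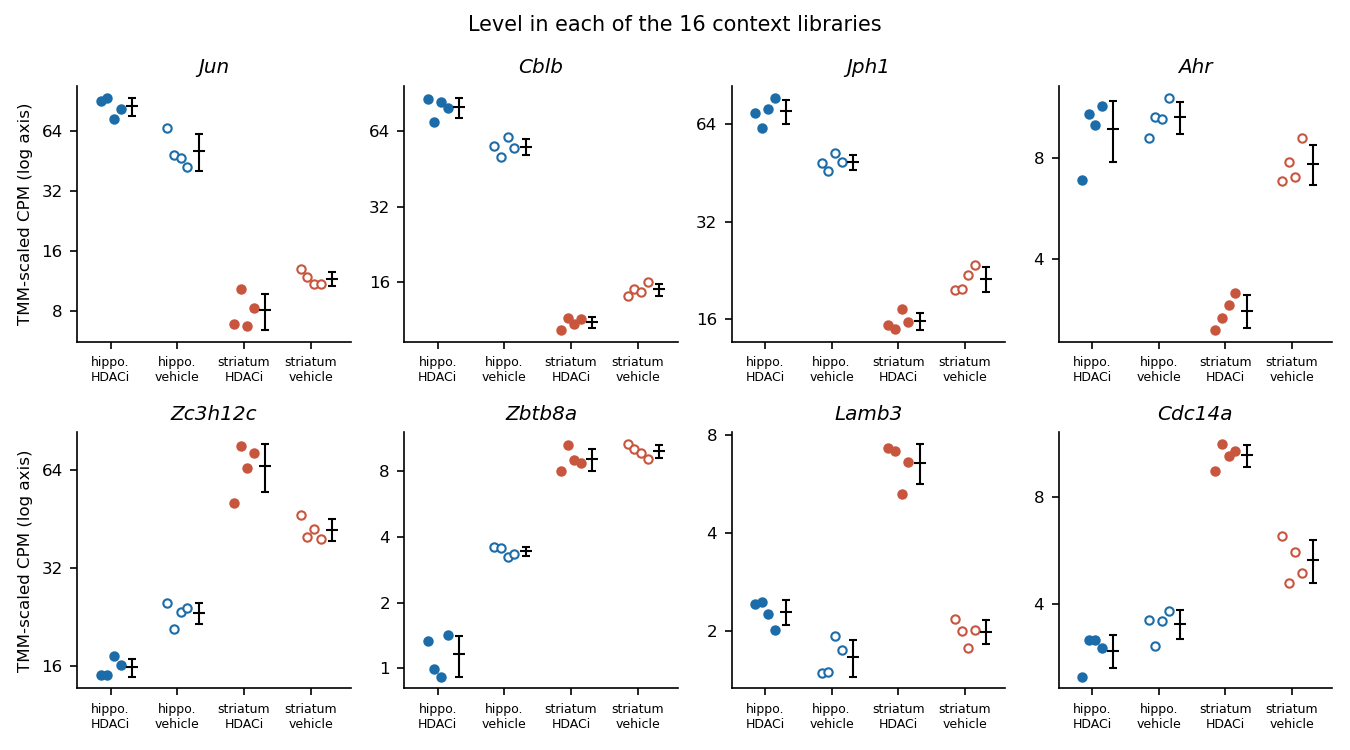
TMM-scaled CPM (log axis) of 8 genes in each of the 16 context libraries, filled for HDACi and open for vehicle, with the mean and SD of each group of 4 beside the points. In Jun, Cblb and Jph1 the filled points lie above the open ones in hippocampus (blue) and below them in striatum (red), Zc3h12c shows the reverse, and Ahr, Zbtb8a, Lamb3 and Cdc14a separate most clearly in 1 region.

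Opposite changes with the test passed in both regions were rare, and 17 of the 19 such genes had a called difference. Their difference adds the sizes of both effects, each of which passed, so this share follows largely from the choice of genes. Beside Cblb and Jph1, the naming rule gave Mtmr12, an inactive member of the myotubularin phosphatases, as a gene that rose in hippocampus (1.21-fold) and fell in striatum (1.34-fold). Its level was 105, 88.9, 104 and 93.8 CPM in hippocampus HDACi, against 82.1, 79.4, 87.9 and 75.1 CPM in hippocampus vehicle, and 25.7, 28.6, 29.5 and 28.9 CPM in striatum HDACi, against 36.7, 36.6, 36.2 and 41.7 CPM in striatum vehicle. No drug group overlapped its controls, and the difference was 0.70 ± 0.12 (adjusted p = 0.00208 in edgeR). In the other direction stood Zc3h12c, an RNA-binding zinc finger protein of the Regnase family (chromosome 9, 52111344 to 52168572, minus strand). It was at 15.1, 15.1, 17.2 and 16.1 CPM in hippocampus HDACi, against 25.0, 20.8, 23.5 and 24.1 CPM in hippocampus vehicle. In striatum it was at 50.6, 75.7, 65.0 and 72.0 CPM with HDACi, against 46.5, 39.9, 42.3 and 39.4 CPM with vehicle. It fell 1.47-fold in hippocampus and rose 1.57-fold in striatum, a difference of -1.20 ± 0.19 (adjusted p = 0.00150 in edgeR). Acat2, a cytosolic thiolase of acetyl-CoA metabolism, fell 1.21-fold in hippocampus and rose 1.28-fold in striatum, and Glce, the epimerase that modifies heparan sulfate, changed by -0.36 ± 0.08 log2 in hippocampus and by 0.32 ± 0.08 log2 in striatum (both passed the test).

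Promoter sequences of the called genes were searched for 3 short motifs. The window was the 250 bases before the start in RefSeq's table for GRCm38.p6, which held 43 of the 55 positive and 48 of the 64 negative genes, and both strands were read. The GC box, GGGCGG or its reverse complement CCGCCC, is the motif of Sp1-type factors. Counted per gene over any of its windows, it was present for 36 positive genes (83.7%) and 30 negative genes (62.5%), against 7636 of 12833 tested genes (59.5%). Counted per window, which is an unlike measure, it was in 32.7% of all 32851 windows. The letters of the cAMP response element, TGACG directly followed by TCA, were in 0 of 43 and 1 of 48, against 2.80% of tested genes. Those of the AP-1 motif, TGANTCA, were in 1 of 43 and 4 of 48, against 5.58%. A match is a description of letters and not a bound site. The windows of 3 genes that lie in no annotated exon are shown with GC boxes in capitals: Mtmr12, which rose in hippocampus and fell in striatum, holds 2 of them, and Pard6b and Zfp959, which both fell in hippocampus and missed the threshold in striatum, hold 3 and 0. They lie on the plus strand at chr15:12204778-12205027 (Mtmr12), chr2:168080754-168081003 (Pard6b) and chr17:55891843-55892092 (Zfp959).
Mtmr12: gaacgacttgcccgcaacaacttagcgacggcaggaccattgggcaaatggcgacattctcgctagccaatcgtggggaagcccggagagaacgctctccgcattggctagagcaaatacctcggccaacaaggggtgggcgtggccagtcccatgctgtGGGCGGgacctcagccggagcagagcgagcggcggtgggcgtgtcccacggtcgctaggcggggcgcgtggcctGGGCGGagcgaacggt
Pard6b: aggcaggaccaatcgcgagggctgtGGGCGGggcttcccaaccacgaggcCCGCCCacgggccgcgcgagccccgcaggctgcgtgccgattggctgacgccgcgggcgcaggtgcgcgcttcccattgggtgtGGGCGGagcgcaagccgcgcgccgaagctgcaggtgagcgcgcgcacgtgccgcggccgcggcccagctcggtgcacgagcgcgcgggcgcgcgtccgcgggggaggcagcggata
Zfp959: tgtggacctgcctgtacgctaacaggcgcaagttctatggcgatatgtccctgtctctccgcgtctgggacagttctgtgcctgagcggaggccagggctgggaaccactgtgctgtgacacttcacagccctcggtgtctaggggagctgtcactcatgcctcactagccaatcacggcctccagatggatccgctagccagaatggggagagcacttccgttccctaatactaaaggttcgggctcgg

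Genes that moved the same way in both regions are given for comparison, chosen for a 95% interval of the region difference within ±0.5 log2, which held for 1609 of 2732 such genes. Ing5, which binds methylated histone H3 within acetyltransferase complexes, was lowered 3.39-fold in hippocampus and 3.87-fold in striatum, with a region difference of 0.19 (95% interval -0.09 to 0.48). Rpusd2, a protein with a pseudouridine synthase domain, fell 3.10-fold in hippocampus and 3.29-fold in striatum. The DNA repair genes Polh and Etaa1 fell 2.57-fold and 2.63-fold in hippocampus and 2.6-fold and 2.5-fold in striatum, in that order of genes. Zfp111 fell 2.96-fold in hippocampus and 2.74-fold in striatum, while Dbpht2 rose 2.4-fold in hippocampus and 2.6-fold in striatum. Sin3a, on which the Sin3 corepressor complex assembles, was lowered 2.16-fold in hippocampus and 2.17-fold in striatum, and its difference of 0.00 had a 95% interval of -0.20 to 0.21. Sirt1, a deacetylase of the class CI-994 does not target, fell 4.32-fold in hippocampus and 3.29-fold in striatum, and its difference of -0.39 (95% interval -0.73 to -0.06) did not pass the adjustment (adjusted p = 0.480 in edgeR). Among the targeted enzymes the difference was 0.15 (95% interval -0.06 to 0.36) for Hdac1, -0.11 (-0.39 to 0.17) for Hdac2 and 0.01 (-0.21 to 0.22) for Hdac3.

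The immediate early genes, which neurons switch on within minutes of activity, were measured 1 hour after the chamber. Of 21 transcription factors on that list Jun was the one with a called difference. Arc, which acts at synapses, was at 133, 164, 102 and 101 CPM in hippocampus HDACi, against 166, 75.1, 69.9 and 44.8 CPM in hippocampus vehicle, and at 69.2, 128, 87.1 and 88.5 CPM in striatum HDACi, against 196, 74.5, 59.6 and 70.9 CPM in striatum vehicle. Replicate 1 was the highest vehicle library in both regions, and the drug groups overlapped in both. The difference of Arc was 0.59 with a 95% interval of -0.68 to 1.86, that of Fos 0.71 (-0.49 to 1.92), that of Npas4 -0.01 (-1.11 to 1.10), that of Egr1 0.03 (-0.60 to 0.67) and that of Nr4a1 0.50 (-0.42 to 1.42). None passed the test, and the intervals are too wide to call the regions alike. For Homer1, a synaptic scaffold gene, the difference was 0.07 (-0.44 to 0.59).

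Bdnf, a neurotrophin, had the highest difference of the genes named here and did not pass the test. It was at 76.3, 59.0, 89.2 and 80.7 CPM in hippocampus HDACi, against 50.4, 49.4, 56.7 and 45.4 CPM in hippocampus vehicle, with no overlap. Striatum libraries held 0.456, 0.420, 0.683 and 0.641 CPM with HDACi, against 6.60, 0.345, 1.67 and 8.92 CPM with vehicle. The striatal values were high in vehicle replicates 1 and 4, the libraries with the most Tbr1 and Neurod6. The log2 effect on Bdnf in hippocampus was 0.60 ± 0.70 and did not pass (adjusted p = 0.642 in edgeR). In striatum, computed with both libraries, it was -2.98 ± 1.11 and passed (adjusted p = 0.0455 in edgeR). The difference was 3.58 ± 1.32 (adjusted p = 0.362 in edgeR) and 1.55 without these 2 libraries. Nr4a2, a nuclear receptor of the immediate early list, was also highest among striatum libraries in these 2: it was at 2.77, 1.68, 2.70 and 3.27 CPM in striatum HDACi, against 33.5, 2.13, 6.34 and 37.2 CPM in striatum vehicle, and its difference of 2.94 ± 1.21, computed with both, did not pass (adjusted p = 0.480 in edgeR).

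Gene lists of pathways and cell types held few called differences. The 35 lists covered 610 tested genes, and 3 of them were called (0.492%, beside 0.620% of all genes): Jun, Tnfaip3 and the potassium channel Kcnn3. Kcnn3, the SK3 channel that opens with intracellular calcium (chromosome 3, 89520164 to 89675132, plus strand), was at 27.5, 33.5, 30.0 and 30.8 CPM in hippocampus HDACi, against 28.6, 30.5, 26.4 and 31.7 CPM in hippocampus vehicle. In striatum it was at 146, 171, 159 and 176 CPM with HDACi, against 90.1, 104, 106 and 89.6 CPM with vehicle. It rose 1.68-fold in striatum with no overlap, and the hippocampal groups overlapped. The difference was -0.69 ± 0.15 (adjusted p = 0.0292 in edgeR), with an adjusted p of 0.0517 when hippocampus and striatum libraries of the same number form a block. It was -0.48 (adjusted p = 0.467) without striatum vehicle replicates 1 and 4, and it missed the threshold when any of 12 of the 16 libraries was left out (-0.67 to -0.54), all but hippocampus vehicle replicates 1 and 3 and striatum vehicle replicates 2 and 3. Of the 44 potassium channel genes tested, 13 rose in hippocampus and 19 in striatum (6.25% and 12.5% of all tested genes rose there), none fell in either, and the median region difference was -0.04, beside -0.03 over all genes.

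Of the 24 NF-kappaB and interferon genes tested, 11 fell in hippocampus and 12 in striatum, where 1 rose (Irf1), and the median difference was 0.04. In the main fit 13.3% of all tested genes fell and 6.25% rose in hippocampus, and 13.6% fell and 12.5% rose in striatum. These shares are the background for this list and those that follow, and they depend on the scaling. Malt1 and Bcl10, which join in a signalling complex upstream of NF-kappaB, fell in both regions: Malt1 changed by -1.78 in hippocampus and -1.44 in striatum on the log2 scale, and Bcl10 by -1.05 and -1.04 in the same order. Their differences were -0.34 (95% interval -0.68 to -0.001) and -0.02 (-0.31 to 0.27), and neither passed the test. Tnfaip3 was the one member with a called difference. Of 29 corepressor genes, 5 rose and 10 fell in hippocampus, and 6 rose and 12 fell in striatum. Of 22 acetyltransferases and acetyl-lysine readers, 12 fell in hippocampus and 12 in striatum, and none rose. Neither list held a called difference, and their medians were 0.02 and -0.05. Of 22 genes of cholesterol synthesis, 4 fell in hippocampus and 7 in striatum, and the median difference was 0.15.

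The cell type lists held no called difference. The median difference was -0.22 over 19 medium spiny neuron genes and 0.14 over 18 hippocampal excitatory genes. It was 0.26 over 12 genes of mature oligodendrocytes, whose members ranged from 0.18 to 0.35. The summed level of these oligodendrocyte genes was 4052 to 5220 CPM in hippocampus HDACi and 3330 to 4731 CPM in hippocampus vehicle, and 6732 to 7805 CPM in striatum HDACi and 6373 to 8601 CPM in striatum vehicle, so the drug groups overlapped in both regions. The lowest median of these lists was that of 5 blood genes, -0.61, with members from -0.65 to -0.49. Their summed level was 66.5 to 154.9 CPM in hippocampus HDACi and 91.1 to 198.2 CPM in hippocampus vehicle, and 104 to 194.5 CPM in striatum HDACi and 74.3 to 199.4 CPM in striatum vehicle, so the drug groups overlapped in both regions. After conditioning the medians of the medium spiny neuron, hippocampal excitatory, mature oligodendrocyte and blood lists were -0.09, -0.19, -0.16 and 0.17. The medium spiny neuron list thus kept its sign, and the others changed theirs. The part of cell composition in the called differences was not tested.

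The direction of a called difference went with the region in which the gene was more abundant without drug. This was read from the vehicle libraries of conditioned mice, which the region difference after context does not contain. Of the 55 positive genes 53 were higher in hippocampus than in striatum there, with a median log2 ratio of 0.72. Of the 64 negative genes 58 were higher in striatum, with a median log2 ratio of -0.48. Together, for 111 of 119 (93.3%), the signed log2 effect of CI-994 was the higher one in the region of higher expression. A higher signed effect is not a larger change. Of the 55 positive genes 42 fell in striatum and 21 rose in hippocampus. Of the 64 negative genes 42 fell in hippocampus and 31 rose in striatum. Over all tested genes the sign of the region difference and that of the level matched for 57.4%, and the median ratio was 0.01. Read the other way, 46 of the 51 genes called in conditioned mice (90.2%, beside 48.1% of all genes) matched the levels in vehicle mice after context. The regional ratios were mostly modest, within 2-fold for 88 of the 119 genes (73.9%, beside 83.8% of all tested). Without striatum vehicle replicates 1 and 4, 44 of 45 positive and 12 of 12 negative calls had the pattern. Jun (log2 ratio 1.99) and Cblb (1.82) were among the positive genes with hippocampal levels well above the striatal ones, and Zbtb8a (-1.56), Ccnyl1 (-1.25) and Kcnn3 (-1.73) among the negative ones with higher striatal levels. Tnfaip3 (-0.11) and Lin54 (0.29) went against it.

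**Figure D4:**
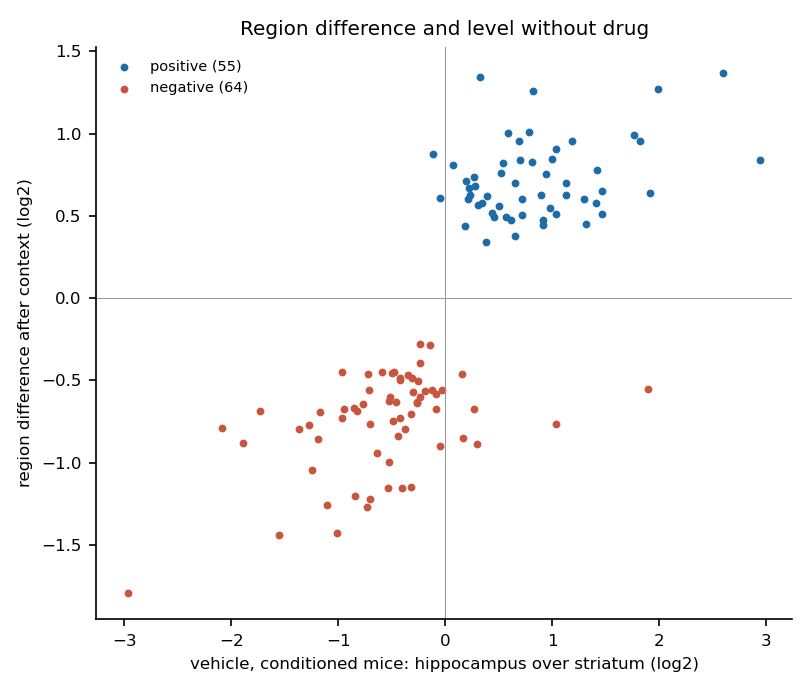
Region difference of the CI-994 effect after context (vertical axis, log2) against the ratio of hippocampus to striatum in vehicle mice after conditioning (horizontal axis, log2) for the 119 called genes, blue where positive and red where negative. Most points lie at upper right (53 of 55 positive genes) or lower left (58 of 64 negative genes).

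The called genes differed from the rest in kind and level. Of the 119, 114 were protein-coding (95.8%, beside 78.6% of tested genes), and their median level was 4.40 log2 CPM, beside 3.27 for all. Their median transcript length was 4199 bases, beside 3001, and their median GC content was 48.8%, beside 49.2%. The median standard error was 0.14 log2 for genes above 3 log2 CPM, beside 0.21 for all, so a call was easier at higher levels. The called genes were not compared with genes of like level. An annotated gene overlapped 48 of the 119 on the opposite strand, beside 42.7% of tested genes. On the same strand 28 had an overlap, among them Rnf19a, Ttc26, Glce, Lin54, Actr5 and Lamb3, and the share over all tested genes was not computed. The overlaps are given to mark uncertain counts and not as a trait of the called genes. The strand setting of the counting is not given in the sources used here, so reads of overlapping genes may not be told apart.

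In conditioned mice, which share no library with the context mice, the same difference was called for 51 genes (0.266%), 27 positive and 24 negative. Of the 119 genes called after context, 117 had the same sign after conditioning, beside 63.5% of all tested genes. The exceptions were Btbd19 (-0.73 after context and 0.09 after conditioning) and Ptges3l (-1.79 and 0.05), which were chosen after their values were seen. Both comparisons called 40 genes, 33.6% of the calls after context and 78.4% of those after conditioning. The 2 sets of calls came from 1 fit with a shared estimate of the spread for each gene. They are therefore not independent, and the overlap is a description. With the 16 conditioning libraries fitted alone, 4 differences were called. The median size over the 119 genes was 0.67 after context and 0.51 after conditioning, and 102 of them were smaller after conditioning. The genes were chosen by their values after context, so a smaller value in other libraries is a description. Ahr was at 1.34 after context and 1.17 after conditioning, Jun at 1.27 and 0.87, Zc3h12c at -1.20 and -1.22, and Glce at -0.68 and -0.79. The change of the region difference between the behaviours was itself called for 0 of 19198 genes by edgeR (369 at an unadjusted p under 0.05) and for 0 by DESeq2. Its median standard error was 0.30 log2, so changes of small size were not detectable at this replication.

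**Figure D5:**
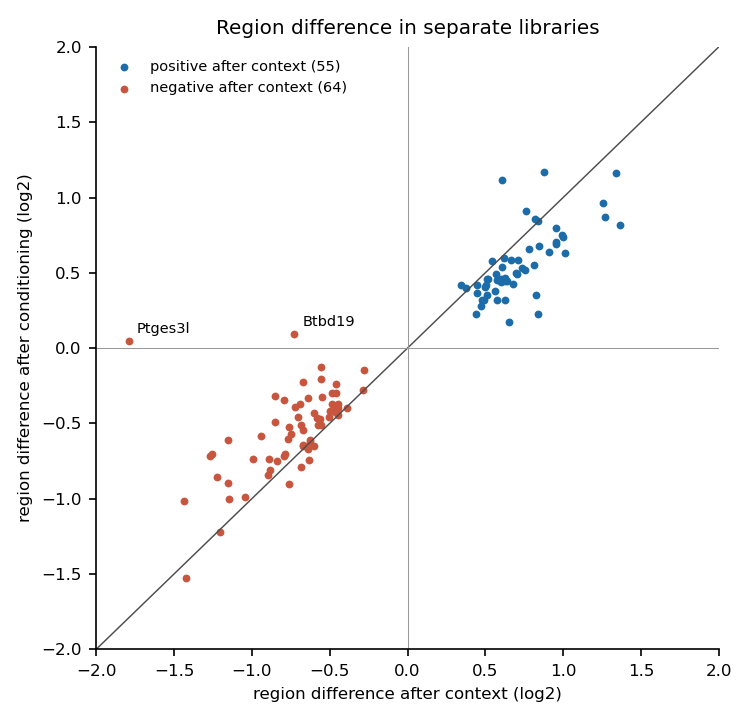
Region difference of the CI-994 effect after context (horizontal axis, log2) and after conditioning (vertical axis, log2) for the 119 genes called after context, with the diagonal of equal values. Of the 119 points 117 lie in the quadrants of equal sign, and Ptges3l and Btbd19 lie just above 0 after conditioning.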

How the data were processed

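The deposited file holds raw counts of reads per gene, made by the authors from stranded polyadenylated RNA libraries sequenced as 100-base read pairs, per the labels. The submitters' processing notes list STAR 2.6, bcl2fastq 2.20.0 and DESeq2 beside the genome build mm10, and no role is named for any of them. The counting step is not given in the sources used here. Symbols and positions came from GENCODE M21 for 54079 of the 54146 identifiers, and those without a symbol (67) took no more than 0.0264% of the counts in any library.

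All 32 libraries (8 groups of 4) entered 1 fit of group means in edgeR 4.0.16 (R 4.3.3), using filterByExpr, TMM scaling, the two-sided quasi-likelihood F test, Benjamini-Hochberg adjustment over 19198 genes and a threshold of 0.05. CPM are TMM-scaled. Intervals are 95% from the fit. On simulated counts the region difference was called for 6% of genes changed 1.25-fold, 26% at 1.5-fold, 56% at 1.75-fold and 80% at 2-fold, and 1.18% of calls were false (18983 genes). This was 1 run with 1 false call. The changes (50 genes per size) were put into hippocampus HDACi, in genes of at least 1 log2 CPM. Libraries were drawn independently with the fitted spread, without the replicate sets and shared deviations of the data. The shares may therefore not hold for the real libraries. Hippocampus and striatum libraries of the same treatment and number were checked for pairing after context: the labels do not say that they share a mouse, but every correlation of their deviations exceeded 0.1. The best match had the same number in 6 of 8 cases. Correlations between HDACi and vehicle libraries of the same region and number, which are different mice, reached 0.66. These correlations therefore do not show that a pair shares a mouse.

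The genes named are 13 chosen genes, the 12 called genes of each direction with the largest difference (from a mean log2 CPM of 1 upward, clone and predicted-gene names left out, and no overlap of drug groups in at least 1 region), up to 6 genes with opposite changes, up to 6 with shared ones, and called list members. Members, lists and this rule were chosen with earlier results of these data known. A gene that the rule admits is not reported here. The alternatives tried were other scalings, DESeq2 1.42.0, no filter, fewer libraries, blocks, a batch term, GC and length offsets, and each library left out. Those without striatum vehicle replicates 1 and 4, and within replicate sets, were chosen after seeing the data.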

Additional observations from a re-analysis of the deposited data

Results flagged for a closer look

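In 11 of 184 groups of 4 libraries tested over the 46 named genes, 1 library lay far from the other 3 (Dixon's ratio above its 95% critical value), and chance flags about 1 in 20 groups. These were Mphosph10 in striatum vehicle replicate 2 (12.9 CPM), Rnf19a in hippocampus vehicle replicate 3 (85.0 CPM), Ttc26 in striatum vehicle replicate 4 (11.4 CPM), Fos in striatum vehicle replicate 1 (22.1 CPM), Mtmr12 in striatum vehicle replicate 4 (41.7 CPM), Arc in striatum vehicle replicate 1 (196 CPM), Ing5 in hippocampus HDACi replicate 1 (4.73 CPM), Sin3a in striatum HDACi replicate 3 (28.0 CPM), Dbpht2 in hippocampus vehicle replicate 2 (39.9 CPM), Themis2 in hippocampus vehicle replicate 1 (1.18 CPM) and Zfp59 in hippocampus vehicle replicate 1 (8.21 CPM). Of the 11, 5 were striatum vehicle libraries, and 4 of these 5 were replicate 1 or 4.

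The effect of CI-994 differed between hippocampus and striatum after context, by edgeR's test of the difference itself, for 27 named genes. The positive region differences (log2) were Ahr 1.34, Jun 1.27, Hyls1 1.26, Ccdc71l 0.99, Mphosph10 0.96, Cblb 0.95, Jph1 0.95, Frat2 0.91, Tnfaip3 0.88, Rnf19a 0.84, Ttc26 0.84 and Mtmr12 0.70. The negative ones (log2) were Acat2 -0.64, Glce -0.68, Kcnn3 -0.69, Lin54 -0.89, Zfp59 -0.90, Actr5 -0.94, Fam227a -0.99, Ccnyl1 -1.04, Zfp959 -1.15, Mapkapk3 -1.16, Zc3h12c -1.20, Cdc14a -1.22, Pard6b -1.26, Lamb3 -1.27 and Zbtb8a -1.44.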

How the results depend on the processing

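All 119 called region differences kept their sign under each alternative run, and the count of calls moved. After context, 119 genes were called, against 141 with the 16 context libraries alone, among them 91 of the 119. Frat2, Tnfaip3 and Actr5 then missed the threshold. Other counts were 199 with DESeq2's Wald test, 73 with no filter and 208 without 4 conditioning libraries that stood apart. A batch term that separates replicates 1 and 2 from the others gave 200. The count was 271 with GC and length offsets and 57 without striatum vehicle replicates 1 and 4. Of the 27 named genes called, 9 lost the call without those 2 libraries, which also left 3152 striatal drug effects called, against 5009. After conditioning, 51 were called, against 153 with the Wald test, 4 with the 16 conditioning libraries alone, 113 with the batch term and 171 with the offsets. Leaving out 1 library gave 76 (without hippocampus vehicle replicate 2) to 162 calls after context and 31 to 169 after conditioning. Within replicates 1 and 2 there were 0 region differences after context and 0 after conditioning, 1632 hippocampal and 2299 striatal drug effects. Within replicates 3 and 4 these counts were 4, 0, 1713 and 2624.

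With the hippocampus and striatum libraries of a number as a block, the calls were 312 after context and 187 after conditioning, where the paired correlations were 0.03 to 0.37. A block for the replicate number across all groups gave 238 after context and 139 after conditioning. HDACi and vehicle libraries of a region share only a number, with correlations of 0.09 to 0.66 after context. The block of hippocampus and striatum libraries ended the call of Kcnn3 among the named genes. Of 783 alternative values of the 27 called genes, 665 kept the call, 118 missed the threshold and 0 changed sign. Bdnf passed the threshold with the 16 context libraries alone. The cause of these shifts was not tested.

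The median standard error of a region difference was 0.21 log2, and 0.14 for genes above 3 log2 CPM, so most differences under 1.5-fold could not be called with 4 mice per group.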
